A study of Mus musculus with 10 samples.

Results

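The genes described here are 10 non-opioid neuropeptide precursors that are known from breathing circuits: Sst, Tac1, Nmb, Grp, Npy, Cck, Crh, Trh, Adcyap1 and Cartpt. They were taken as a list of names and are 10 of the 55367 genes in the deposited tables. The tables hold 10 inspiratory neurons of the preBötzinger complex (preBötC), the brainstem site that generates the rhythm of inspiration, and each sample is the aspirated cytoplasm of 1 patch-clamped neuron. Levels are FPKM, fragments per kilobase of gene length scaled to the fragments counted on genes in that library, so they can be compared between genes.

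Samples 1, 5, 6 and 7 were Dbx1-derived neurons from the offspring of Dbx1-Cre and Ai148 mice, in which Cre driven by the Dbx1 promoter switches on the calcium indicator GCaMP6f. The reporter marks descent from Dbx1-expressing precursors and not present expression of Dbx1. Samples 2, 3, 4, 8, 9 and 10 were from wild-type CD-1 mice without a reporter, where a neuron was taken for its activity in time with the hypoglossal motor output. By their recordings, samples 4, 5, 6 and 7 were Type-1 neurons, which are putatively rhythmogenic, sample 1 was the single Type-2 neuron, which is putatively pattern-generating, and samples 2, 3, 8, 9 and 10 could not be classified and were Unknown. Samples 1, 3, 5 and 8 were from postnatal day 0 (P0), sample 10 from P1, samples 2 and 9 from P2, and samples 4, 6 and 7 from P3. No animal is named for any neuron and each neuron is 1 library, so types, mice and ages were not tested against each other and the values stand without p-values.

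Neuropeptides are cut from larger precursor proteins inside dense core vesicles and act on G protein-coupled receptors, more slowly and over longer distances than glutamate, GABA or glycine. Somatostatin, encoded by Sst, marks a population of preBötC neurons and lowers excitability through its receptors. Substance P, encoded by Tac1, excites preBötC neurons through the NK1 receptor and speeds the rhythm. The bombesin-like peptides of Nmb and Grp act on preBötC neurons to produce sighs, and thyrotropin-releasing hormone (Trh) and the pituitary adenylate cyclase-activating polypeptide (Adcyap1) stimulate breathing.

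The libraries held between 21392146 and 36629393 fragments on genes, and a count of 0 allows up to 3 fragments. Without molecular identifiers in the reads, these limits and the intervals below cover counting error only. Samples 1 to 4, described in the study as the libraries with the least cDNA, stood apart from the rest. Over 10405 genes with a fragment in 7 or more neurons, the median level was between 0.203 and 1.62 FPKM in these 4 libraries and between 3.47 and 8.66 FPKM in samples 5 to 10. Sample 4 also stood apart from its label. Its 8 neuron markers summed to 58.4 FPKM, against 761 to 4670 FPKM in the other 9 libraries, while its 8 microglia markers, all at 1 FPKM or more, summed to 15398 FPKM against 0.685 to 2039 FPKM. Sample 9 held 5 of 6 markers of cholinergic motoneurons at 1 FPKM or more, with Mnx1 at 0 fragments, and their sum was 519 FPKM against 1.33 FPKM or less elsewhere. The 10 astrocyte markers summed to between 151 and 6463 FPKM, the 8 of the oligodendrocyte lineage to 337 FPKM or less, and the 6 endothelial markers to 6.82 FPKM or less. Sample 3 had the highest astrocyte and oligodendrocyte sums. Sample 2 also had all 8 microglia markers at 1 FPKM or more, with the sum of 2039 FPKM, and sample 8 had all 10 astrocyte markers at that level. The part of these other cell type genes in the results below was not tested.

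Of the 10 precursors, 5 reached 1 FPKM in at least 1 neuron (Sst, Tac1, Grp, Npy and Trh) and the other 5 had 0 fragments in all 10 neurons. In the whole table, 29.9% of the listed genes reached 1 FPKM in a neuron and 61.7% had no fragment, and among the protein-coding genes 57.9% reached it. Sst was present in 6 neurons at 1 FPKM or more and Tac1 in 3, while Grp, Npy and Trh each reached that level in a single neuron, samples 6, 5 and 9. Sample 4 had no fragment of any of the 10 precursors, and sample 10 had 1 fragment, of Trh. The largest number in a neuron was 3, in sample 6, with Sst, Tac1 and Grp.

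**Figure D1:**
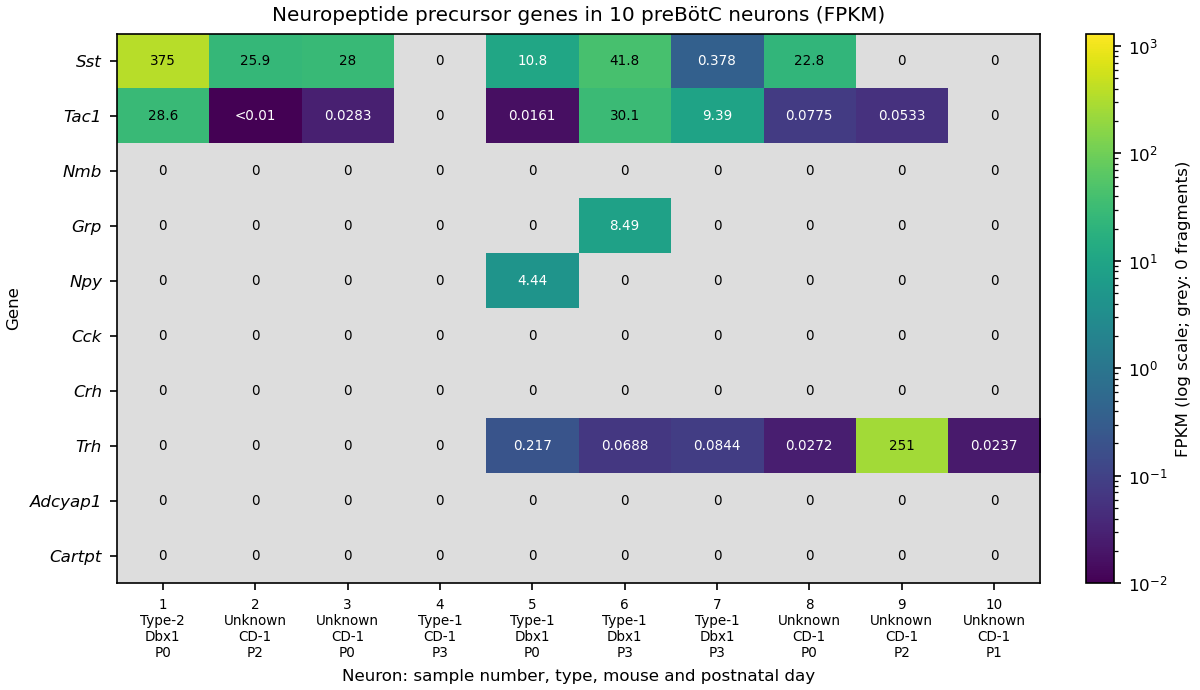
FPKM of the 10 precursor genes (rows) in each neuron (columns, with sample number, type, mouse and postnatal day); colour is FPKM on a log scale, the number in a cell is the FPKM, and grey marks 0 fragments. Sst fills most columns, Tac1 stands out in samples 1, 6 and 7, and Grp, Npy and Trh each stand out in 1 column.

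Sst (chromosome 16, 23889573 to 23890958 on the minus strand of GRCm38, protein-coding) had a mean of 50.4 ± 115 FPKM (SD, n = 10 neurons), which rests on sample 1: over the other 9 neurons it was 14.4 ± 15.7 FPKM. It was at 375, 25.9, 28.0, 0, 10.8, 41.8, 0.378, 22.8, 0 and 0 FPKM in samples 1 to 10. The Type-2 neuron was thus the highest, at 8.95 times the next neuron, and samples 4, 9 and 10 had no fragment. Samples 1 to 4 are the libraries of low median level given above. In sample 1, 6 of the 8 neuron markers were at 1 FPKM or more. Tubb3 was at 23.0 FPKM, Nefl at 0.263 FPKM and Rbfox3 at 0.0241 FPKM, while Elavl4, at 61.0 FPKM, was highest there of the 10 neurons. Rbfox3 was also low in samples 7 and 10, at 0.0268 and 0 FPKM. Without samples 1 to 4, Sst was at 1 FPKM or more in 3 of 6 neurons, and the part of library quality in its levels was not tested. The 5777 fragments of sample 1 (exact 95% Poisson interval 5629 to 5928) made Sst the gene ranked 78 by FPKM in that neuron, and its level there was at least 1987-fold higher than 3 fragments in any of the 3 libraries without one.

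In the middle of the order, sample 6 lay at 41.8 FPKM (39.2 to 44.6 by the same interval), above sample 3 at 28.0 FPKM (25.9 to 30.3). The intervals of samples 3 and 2 overlapped, as did those of samples 2 and 8, and sample 5 lay below them at 10.8 FPKM (9.54 to 12.1). The 7 fragments of sample 7 were the only Sst reads below 1 FPKM. Across the whole table, 37.4% of the genes that reached 1 FPKM did so in at least 6 neurons, as Sst did.

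By type, the 4 Type-1 neurons (samples 4 to 7) had Sst levels of 0, 10.8, 41.8 and 0.378 FPKM and the 5 Unknown neurons levels of 25.9, 28.0, 22.8, 0 and 0 FPKM, so these groups overlapped. By mouse, the 4 Dbx1-derived neurons ranged from 0.378 to 375 FPKM and the 6 CD-1 neurons from 0 to 28.0 FPKM, which also overlapped. By age, all 4 neurons from P0 were at 10.8 FPKM or more, and 2 of the 6 older neurons were. The older neurons include samples 4 and 9, which carried the markers of other cells given above. Libraries with Sst carried such markers too. Sample 2, an older neuron, had all 8 microglia markers at 1 FPKM or more. Among the P0 neurons, the astrocyte markers summed to 6463 and 2206 FPKM in samples 3 and 8, and to 645 and 410 FPKM in samples 1 and 5. Samples 2, 3 and 8 are the Unknown neurons with Sst. Age, mouse and type cannot be told apart with so few neurons.

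Sst was found beside different transmitter genes, and these did not sort its neurons cleanly into types. The vesicular glutamate transporter Slc17a6 was at 101, 158 and 230 FPKM in samples 5, 6 and 8, where Sst was between 10.8 and 41.8 FPKM. In sample 1 the glycine transporter Slc6a5 was at 146 FPKM and the GABA-synthesising enzyme Gad1 at 71.8 FPKM, with Slc17a6 at 0.26 FPKM, and Sst was at its highest. Sample 3 had Gad1 at 37.2 FPKM and Sst at 28.0 FPKM. The vesicular inhibitory transporter Slc32a1 was nevertheless at 0.0167 FPKM in sample 1 and at 0 in sample 3, and sample 8 had Gad1 at 8.28 FPKM beside Slc17a6. Sample 2, with Sst at 25.9 FPKM, had Slc32a1 at 5.95 FPKM and Slc17a6 at 1.85 FPKM. In sample 10, which had no Sst fragment, Gad1 reached 92.0 FPKM and Slc32a1 0.375 FPKM, and sample 7 had Slc17a6 at 156 FPKM with Sst at 0.378 FPKM.

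Tac1 (chromosome 6, 7554879 to 7565834 on the plus strand, protein-coding) reached 28.6, 30.1 and 9.39 FPKM in samples 1, 6 and 7. In samples 2, 3, 5, 8 and 9 it was at 0.00811, 0.0283, 0.0161, 0.0775 and 0.0533 FPKM, from 1, 3, 2, 7 and 4 fragments, and samples 4 and 10 had none. The levels therefore fell into 3 high neurons and 7 at or near 0, with a mean of 6.83 ± 12.2 FPKM (SD, n = 10 neurons), or 4.41 FPKM without sample 1 and 4.24 FPKM without sample 6. Samples 1 and 6 did not differ beyond counting error, with intervals of 27.4 to 29.8 and 29.1 to 31.2 FPKM, whereas sample 7 lay below both. By the sample labels, all 3 high neurons were Dbx1-derived, the Type-2 neuron among them, and the other Dbx1-derived neuron, sample 5, was at 0.0161 FPKM. The 6 CD-1 neurons were between 0 and 0.0775 FPKM, so the mouse groups overlapped through sample 5. Of the CD-1 neurons, samples 2, 3 and 4 are libraries of low median level, as is sample 1, where Tac1 was high. Sample 4 carried the microglia markers and sample 9 the motoneuron markers. Age, mouse and type cannot be told apart here either, and the part of library quality was not tested. The figure legends of the study assign the mouse lines differently from the sample labels, and the labels were used throughout.

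Sst and Tac1 occurred together at 1 FPKM or more in samples 1 and 6. Sample 7 had Tac1 with little Sst, and samples 2, 3, 5 and 8 had Sst with little Tac1. Over the 10 neurons the Pearson correlation of their log2(FPKM + 1) was 0.48, given as a description of 10 libraries that differ in quality and cell content. The genes most like Sst by this measure, among 10419 genes that reached 1 FPKM in 3 neurons or more, were Usp15 (r = 0.907), Zfp523 (0.866) and Frmd4a (0.861). Those most like Tac1 were Gcfc2 (0.989), the orphan receptor gene Gpr19 (0.984) and Dipk2a (0.982). These lists depended on the measure, since by Spearman's rho 1 of the 3 genes named for Sst and 0 of those named for Tac1 stayed among the first 3.

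Grp, Npy and Trh were nearly private to 1 neuron, taken as at least 90% of the FPKM summed over the 10 neurons in the highest neuron, with at least 1 FPKM there. These are 3 of the 5 precursors that reached 1 FPKM, where 22.8% of all genes that reached it met the same rule, and 14.9% of the protein-coding ones. All 3 reached 1 FPKM in exactly 1 neuron, as did 24.9% of the genes at that level. Sst had 74.3% of its summed FPKM in sample 1 and Tac1 44.1% in sample 6. Over the 16546 genes at that level the median share was 48.7%. The members are too few for their count to be read as a property of the list.

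**Figure D2:**
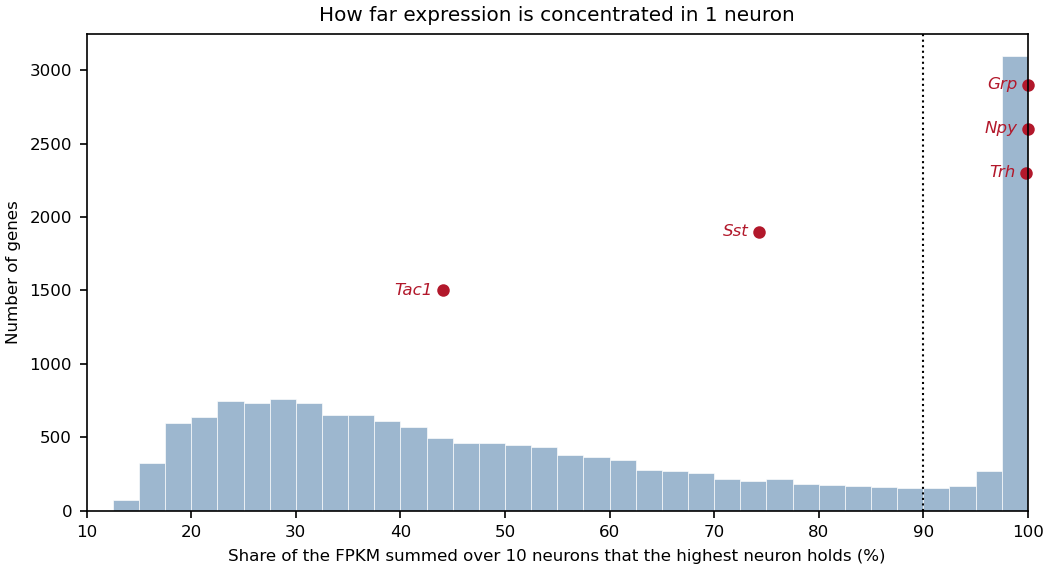
Histogram of the share of the summed FPKM that the highest neuron holds (x axis, percent) over the 16546 genes at 1 FPKM or more in a neuron (y axis, number of genes); red points mark the 5 precursors at that level, at heights chosen only for legibility, and the dotted line the limit of 90%. Grp, Npy and Trh lie at the right edge, Sst at 74.3% and Tac1 at 44.1%.

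Trh (chromosome 6, 92242061 to 92244650 on the minus strand, protein-coding) was at 251 FPKM in sample 9, an Unknown CD-1 neuron from P2, from 7663 fragments (7492 to 7837), and was ranked 220 by FPKM there. Samples 5, 6, 7, 8 and 10 had 11, 3, 3, 1 and 1 fragments, or 0.217, 0.0688, 0.0844, 0.0272 and 0.0237 FPKM, and samples 1 to 4, the libraries of low median level, had none. Sample 9 thus held 99.8% of the summed FPKM and stood 1156-fold above the next neuron, sample 5. The same neuron was the one with cholinergic markers: the vesicular acetylcholine transporter Slc18a3 was at 444 FPKM, Isl1 at 38.1 FPKM and the acetylcholine-synthesising enzyme Chat at 1.80 FPKM. Slc17a6 was at 0.495 FPKM and Gad1 at 0.0356 FPKM in it.

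Grp (chromosome 18, 65872820 to 65886596 on the plus strand, protein-coding) had 395 fragments in sample 6, a Dbx1-derived Type-1 neuron from P3, and 0 in the other 9 neurons. Its level was 8.49 FPKM (7.68 to 9.37), at least 89.5-fold higher than 3 fragments in any of the other libraries. Npy (chromosome 6, 49822710 to 49829507 on the plus strand, protein-coding) had 92 fragments in sample 5, a Dbx1-derived Type-1 neuron from P0, and 0 in the other 9. It was at 4.44 FPKM (3.58 to 5.44), at least 17.9-fold higher than 3 fragments elsewhere. Both neurons had Slc17a6 above 100 FPKM. These are low levels, with Grp ranked 5576 and Npy 7051 by FPKM in their neurons, and each rests on 1 library.

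Low counts of a precursor were set beside those of other genes found almost wholly in the same neuron, meaning at least 1000 fragments there and no other library above 2% of that number. For 83 such genes of sample 9, the median count in sample 5 was 0.0931% of that in sample 9 (quartiles 0.0458% and 0.154%), and the Trh count was 0.144%. In samples 6, 7 and 8 these genes had medians of 0.0465%, 0.0384% and 0.0385%, and Trh had 0.0391%, 0.0391% and 0.013%. In samples 1 to 4 the medians and Trh were at 0, and in sample 10 the single Trh fragment (0.013%) stood against a median of 0. In samples 5 to 8 the few Trh fragments therefore lay within the quartiles of other genes of sample 9.

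For Sst in sample 7, the 91 genes nearly confined to sample 1 by these limits had there a median of 0.14% of their count in sample 1, and Sst had 0.121%. In samples 2, 3, 5, 6 and 8 Sst had between 4.92% and 16.4% of the count of sample 1, which lies above the limit of 2% that chose the other genes, so no comparison with them was made there. Tac1 was high in samples 1, 6 and 7, so genes nearly confined to sample 6 are not a like comparison for it. As a percent of its count in sample 6, Tac1 had 0.217%, 0.0931% and 0.0310% in samples 8, 3 and 2, each against a median of 0. In sample 9 it had 0.124% against 0.0825%, and in sample 5 0.0620% against 0.0672%. For a comparison over all neurons, each Tac1 count was multiplied by the median percent of genes nearly confined to its neuron. Summed over the other neurons, this came to 0.789, 1.06, 2.17, 0.0027 and 2.66 fragments in samples 2, 3, 5, 8 and 9. The Tac1 counts found there were 1, 3, 2, 7 and 4. The origin of these fragments was not tested.

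**Figure D3:**
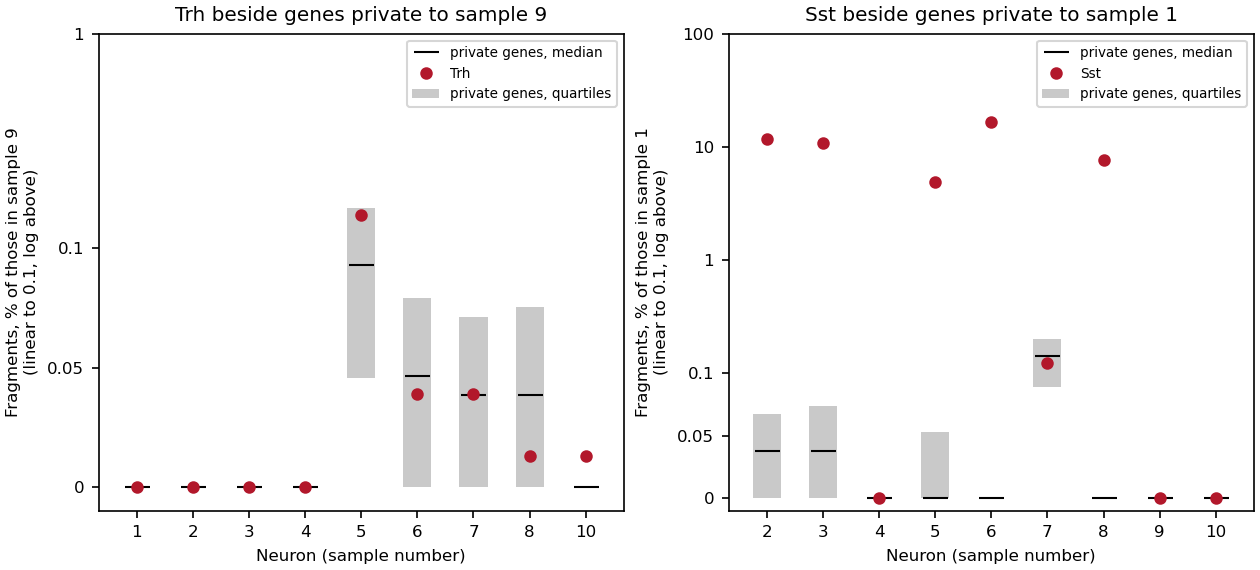
Fragments in each other neuron (x axis, sample number) as a percent of those in the highest neuron (y axis, linear to 0.1 and log above), for Trh and genes nearly private to sample 9 (left) and Sst and genes nearly private to sample 1 (right); red points are the precursor, black lines the median and grey bars the quartiles of the private genes. Trh lies within the bars in samples 5 to 8, and Sst lies within them in sample 7. In samples 2, 3, 5, 6 and 8 Sst is above the limit of 2% by which the private genes were chosen, so its distance from the bars there is not a result.

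Nmb, Cck, Crh, Adcyap1 and Cartpt had 0 fragments in all 10 neurons, and 34.4% of the protein-coding genes were at 0 in the same way. Nmb encodes neuromedin B, Cck cholecystokinin, Crh the corticotropin-releasing hormone and Cartpt the peptide CART. At these depths, 3 fragments correspond to between 0.0628 and 0.107 FPKM for Cck, 0.0620 and 0.106 FPKM for Crh, 0.0217 and 0.0371 FPKM for Adcyap1, and 0.0641 and 0.110 FPKM for Cartpt. For Nmb (chromosome 7, 80902227 to 80905076 on the minus strand) the range was 0.103 to 0.177 FPKM, and 20.6% of its exon bases are shared with Sec11a, so fragments from that part could be lost or given to the other gene. The exons of the other 9 precursors share no base with another gene in GENCODE M21. Cck lies on chromosome 9 (121489824 to 121495694), Crh on chromosome 3 (19693401 to 19695396), Adcyap1 on chromosome 17 (93199017 to 93206537) and Cartpt on chromosome 13 (99898489 to 99901091).

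The precursor at 1 FPKM or more in the most neurons, Sst, and one with no fragment, Cartpt, carry the same short motif near their start, which is why their sequences are shown. TGACGTCA is the full cAMP response element, the site of the activity-dependent factor CREB, and reads the same on both strands. It was searched in the RefSeq promoter windows of 300 bases (250 before the start and 50 after, GRCm38.p6), which hold 8 of the 10 precursors, all but Grp and Crh. It was found in 2 of the 8, Sst and Cartpt, and in 2.03% of the 27025 genes with such windows (1.79% of all 32851 windows). The capitals mark the motif, which begins 48 bases before the RefSeq start of Sst and 112 bases before that of Cartpt. Both stretches lie on the minus strand and inside exons of GENCODE M21, whose genes begin farther upstream.
Sst, chr16:23890874-23890903: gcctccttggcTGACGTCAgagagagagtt
Cartpt, chr13:99900777-99900806: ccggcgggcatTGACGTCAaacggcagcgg
Sst was at 10.8 FPKM or more in 6 neurons and Cartpt at 0 in 10, so both genes carry these letters while their levels differ. The match is a description of the sequence and not of a bound site.

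The listed genes of peptide processing and dense core vesicles reached 1 FPKM more often than the 10 precursors. All 16 did so in a neuron, against 57.9% of protein-coding genes, with 5 to 13 in each neuron. Of the 16, 3 (18.8%) were nearly private (Pcsk1, Pam and Cadps2), near the shares among all genes (22.8%) and protein-coding genes (14.9%) at that level. The 5 with the highest mean were Cpe, the carboxypeptidase that trims the cut ends, at 382 ± 305 FPKM (SD, n = 10 neurons), Scg5 at 167 ± 103 FPKM, Pcsk1n, an inhibitor of the convertase PC1/3, at 91.3 ± 53.0 FPKM, Scg2 at 85.9 ± 92.4 FPKM and Scg3 at 65.1 ± 49.7 FPKM. Cpe and Scg5 were above 1 FPKM in all 10 neurons, with the lowest levels in sample 4, 24.3 and 31.2 FPKM.

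The enzymes that cut and amidate peptides were divided among the neurons. These 3 genes were singled out after their values were seen. Pcsk2, a prohormone convertase, was at 10.6, 59.1, 15.1, 17.9, 29.5 and 13.5 FPKM in samples 1, 3, 5, 6, 7 and 8, and no higher than 0.166 FPKM in the other 4. Pcsk1, the other convertase of dense core vesicles, was at 54.9 FPKM in sample 9, with Trh, and at 0.0390 FPKM or less elsewhere. Of the 6 neurons with Sst, 5 had Pcsk2 at 1 FPKM or more, and sample 2 had neither convertase at that level. Pam, which amidates the ends of substance P, NPY, GRP and TRH, was at 9.53 FPKM in sample 6, the neuron with Tac1 and Grp. It had 0 fragments in samples 1 and 7, which had Tac1, was at 0.0941 FPKM in sample 5 with Npy, and was below 0.01 FPKM in sample 9 with Trh.

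**Figure D4:**
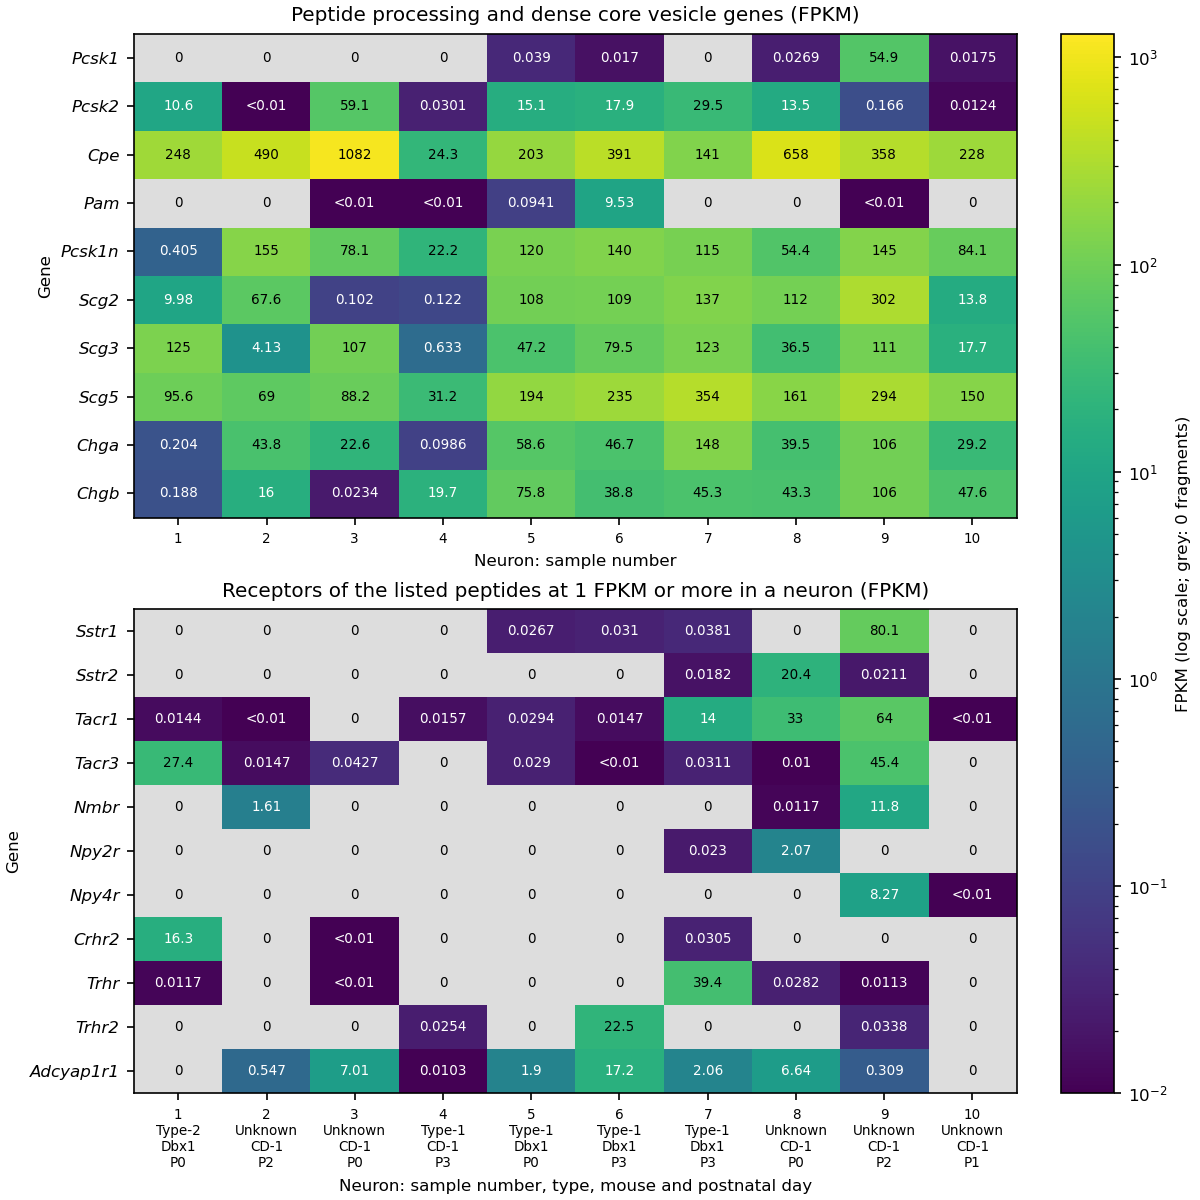
FPKM of 10 peptide processing and dense core vesicle genes (top) and of the 11 listed receptors at 1 FPKM or more in a neuron (bottom); columns are neurons, colour is FPKM on a log scale, the number in a cell is the FPKM and grey marks 0 fragments. Cpe and Scg5 fill every column, Pcsk1 stands out in sample 9 and Pam in sample 6, and most receptors stand out in 1 to 3 columns.

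Of 24 listed receptors for these peptides, 11 (45.8%) reached 1 FPKM in a neuron and 12 (50%) had 0 fragments in all. Among all genes these shares were 29.9% and 61.7%, and among protein-coding genes 57.9% and 34.4%. Of the 11, 7 (63.6%) were nearly private, against 22.8% of all genes at that level and 14.9% of the protein-coding ones. The somatostatin receptor Sstr1 was at 80.1 FPKM in sample 9, which had no Sst, and Sstr2 at 20.4 FPKM in sample 8, where Sst was at 22.8 FPKM. Sstr3, Sstr4 and Sstr5 had 0 fragments in the 10 neurons. The NK1 receptor gene Tacr1 was at 14.0, 33.0 and 64.0 FPKM in samples 7, 8 and 9, and Tacr3 at 27.4 and 45.4 FPKM in samples 1 and 9. Tac1 was therefore accompanied by Tacr3 in sample 1 and by Tacr1 in sample 7, and by no listed receptor of its peptides at 1 FPKM in sample 6.

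The bombesin receptor Nmbr was found in sample 9 (11.8 FPKM) and sample 2 (1.61 FPKM), and Grpr had 0 fragments in every neuron. The TRH receptor genes Trhr and Trhr2 were each high in 1 neuron, at 39.4 FPKM in sample 7 and 22.5 FPKM in sample 6. Neither was the neuron with Trh. Adcyap1r1, the receptor of the undetected Adcyap1, was between 1.90 and 17.2 FPKM in samples 3, 5, 6, 7 and 8. Crhr2 was at 16.3 FPKM in sample 1, Npy2r at 2.07 FPKM in sample 8 and Npy4r at 8.27 FPKM in sample 9.

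Most other precursors that reached 1 FPKM were also nearly private to 1 neuron. Of 42 further non-opioid precursors, 12 (28.6%) reached 1 FPKM in a neuron and 27 (64.3%) had 0 fragments in all. These shares were near those of all genes (29.9% and 61.7%), while protein-coding genes had 57.9% and 34.4%. Of the 12, 10 (83.3%) were nearly private, against 22.8% of all genes at that level and 14.9% of the protein-coding ones. Sample 9, with Trh, held 5 of those 10: Calca and Calcb, which encode CGRP peptides, at 1264 and 772 FPKM, Gal (galanin) at 598 FPKM, Edn3 at 17.1 FPKM and Agrp at 10.8 FPKM. Sample 4, with the microglia markers, held 2 of the 10. Without sample 9 the 10 fell to 6, and without samples 4 and 9 to 4. The opioid precursors behaved otherwise in part. Penk, the enkephalin precursor, was at 1 FPKM or more in 9 neurons with 35.7% of its summed FPKM in the highest, while 99.8% of the Pdyn level lay in sample 10, which had none of the 10 listed precursors at 1 FPKM. Pomc reached 15.5 and 3.78 FPKM in samples 7 and 10, and Pnoc reached 1.04 FPKM in sample 2.

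**Figure D5:**
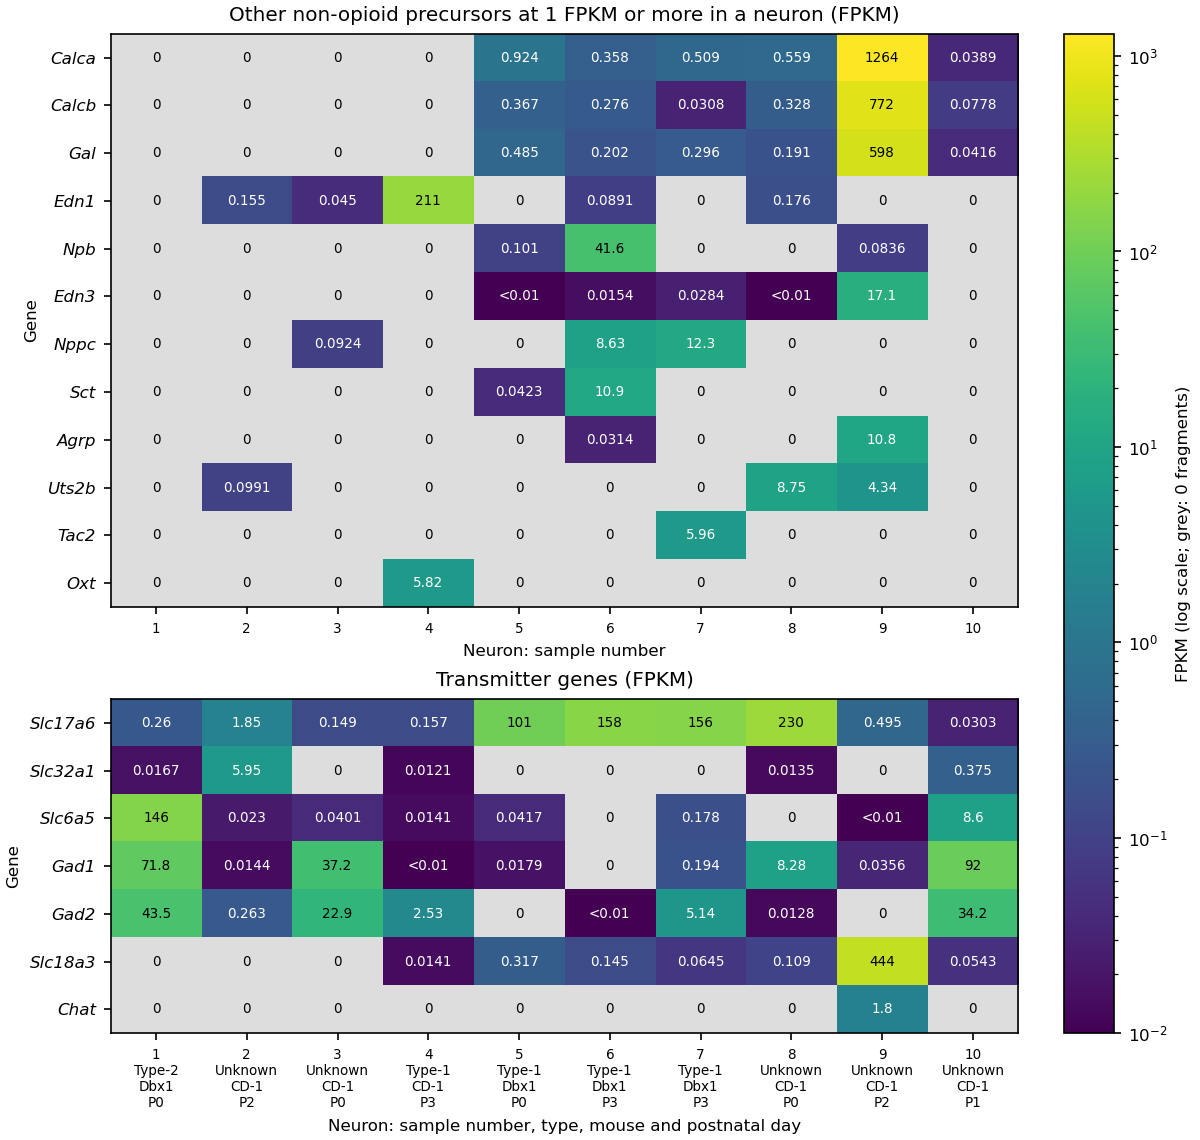
FPKM of the 12 other non-opioid precursors at 1 FPKM or more in a neuron (top) and of 7 transmitter genes (bottom); columns are neurons, colour is FPKM on a log scale, the number in a cell is the FPKM and grey marks 0 fragments. Calca, Calcb and Gal stand out in sample 9 together with Slc18a3, while Slc17a6 is above 100 FPKM in samples 5 to 8.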

How the data were processed

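Cytoplasm of 10 single neurons was made into 1 full-length cDNA library each (SMART-Seq v4 and Nextera). The authors trimmed the reads, aligned them to GRCm38 with STAR 2.7.7a and deposited fragment counts per gene made with featureCounts, without normalization. The FPKM values they deposited equal these counts divided by gene length and by the library's total on genes. The deposited gene lengths are in bases. How fragments that match several genes were counted is not given in the sources used here, and the kit does not mark strand.

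FPKM was used as deposited, with a level limit of 1 FPKM. A gene was called nearly private with at least 90% of its summed FPKM in 1 neuron. Intervals are exact 95% Poisson intervals, and 3 counts are what a count of 0 allows. Neurons were grouped by the sample labels, and no test between groups was made. The precursors, gene lists and limits were chosen with earlier results of these data known. The genes named were the 10 precursors, the receptors at 1 FPKM or more, the 5 processing genes of highest mean, the 10 other precursors of highest level, the opioid and transmitter genes, and the 3 genes most like a member by Pearson's r of log2(FPKM + 1). Not all of these are printed, and 1 marker gene is not reported here. Positions are from GENCODE M21 and promoters from RefSeq, both on GRCm38. The calculations were tested on simulated data and run in Python 3.11.15 with SciPy 1.17.1, pandas 2.3.3, Matplotlib 3.10.9 and NumPy 2.4.6. Alternatives were TPM computed from the counts, low counts set to 0, thinning, other limits, other pseudocounts and leaving out each neuron or the libraries in doubt.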

Additional observations from a re-analysis of the deposited data

Results flagged for a closer look

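In 3 of the 8 groups of values examined (a precursor within the 4 Type-1 or the 5 Unknown neurons, as log2(FPKM + 1)), the gap between 1 neuron and its nearest neighbour exceeded Dixon's critical value. Chance alone gives this in about 1 of 20 groups of normally distributed values. The other values of these 3 groups were at or near 0, so that rate does not apply to them. A gene found in a single neuron must exceed the critical value, and the 3 genes are those called nearly private above from the same values. Grp was at 8.49 FPKM in sample 6, with 0 fragments in the other 3 Type-1 neurons. Npy was at 4.44 FPKM in sample 5, with 0 fragments in the other 3. Trh was at 251 FPKM in sample 9, with at most 0.0272 FPKM among the other 4 of that type, and sample 9 is also the library with the motoneuron markers at 519 FPKM in sum.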

How the results depend on the processing

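No paired analysis was possible because the labels number the neurons from 1 to 10 without pairing them across groups and no test was made. With TPM, with libraries thinned to the smallest total, with counts under 3 taken as 0, and with a limit of 0.1 FPKM, 5 precursors still reached the level limit and 3 were nearly private. At 10 FPKM, 3 reached it and 1 was nearly private, and 1568 of all genes were (13.8% of those at that limit), against 3766 in the report. With no level limit, 6871 genes were nearly private. Leaving out 1 neuron at a time, the precursors at 1 FPKM or more ranged from 4 to 5, the nearly private ones from 2 to 3 (2 without sample 5, 6 or 9), all nearly private genes from 3600 to 3888, and the other nearly private precursors from 6 (without sample 9) to 11. Without samples 4 and 9, the latter were 4, and without samples 1 to 4 they were 8, with 5 precursors at 1 FPKM or more and 3 nearly private (both chosen after seeing the data). The means depended strongly on whether log2 values were averaged, though the spread over neurons is so wide that most changes stay within 1 SD. The Sst mean of 50.4 FPKM became 142.7 in TPM, which is another unit, so that rise is not by itself a change of level. It became 8.30 or 4.01 FPKM as a mean of log2 values with a pseudocount of 1 or 0.1, turned back to FPKM. For Trh, 25.1 became 50.1, 0.808 and 0.188, and for Tac1, 6.83 became 20.3, 1.55 and 0.47, so the order of Trh and Tac1 reverses on the log scale. The mean of Trh was 0.0468 FPKM without sample 9. The genes most like Sst and Tac1 also changed. Libraries of single neurons limit every statement, since a gene seen in 1 neuron has no replicate.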

Other observations

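Samples 6 and 7, Dbx1-derived Type-1 neurons from P3 with Tac1, also held precursors outside the list. Nppc, the precursor of C-type natriuretic peptide, had levels of 8.63 and 12.3 FPKM in them, and its highest level among the other 8 neurons was 0.0924 FPKM. In sample 6, Npb (neuropeptide B) was at 41.6 FPKM and Sct (secretin) at 10.9 FPKM, at or below 0.101 FPKM and 0.0423 FPKM in the others. With Sst, Tac1 and Grp, sample 6 thus had 6 non-opioid precursors at 1 FPKM or more, and sample 9 had 7, Trh included. Uts2b, the precursor of a urotensin-related peptide, was at 8.75 FPKM in sample 8 and 4.34 FPKM in sample 9. Edn1, for endothelin-1, was at 211 FPKM in sample 4, where none of the 6 endothelial markers had a fragment and the microglia markers were highest.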
